A study of Homo sapiens with 6 samples.

Results

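The 10 genes described here belong to the YAP/TEAD arm of the Hippo pathway and were chosen by name, with their Ensembl identifiers matched to symbols. They are the coactivators YAP1 and WWTR1, the DNA-binding partners TEAD1 and TEAD4, the kinases LATS1 and LATS2, the LIM protein AJUBA, and the target genes CCN1, CCN2 and AMOTL2. All 10 were found among the 23406 features of the count and FPKM tables, and all 10 passed the filter on low counts, which kept 14071 features.

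The series profiled RNA of Hep-3B, a hepatocellular carcinoma cell line, to compare cells carrying an shRNA against NXN with cells carrying a control shRNA. NXN encodes nucleoredoxin, a redox-active protein of the thioredoxin family. There were 6 libraries, 3 per group, and each group was sampled on days 7, 9 and 11, so that replicates 1, 2 and 3 of a group are its days. Both groups were transduced with lentivirus made in 293T cells, selected in puromycin for about a week and grown in DMEM with fetal bovine serum. The shControl cells are labelled wild type and the shNXN cells as NXN knockdown. The labels do not say whether the days are counted from transduction or from the end of selection, how many shRNAs against NXN were used, or whether the 3 days came from separate cultures. The p-values below therefore measure the spread between these libraries.

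In the Hippo pathway a kinase cascade ends in LATS1 and LATS2, which phosphorylate YAP and TAZ (the product of WWTR1) and keep them out of the nucleus. Unphosphorylated YAP and TAZ bind TEAD proteins on DNA and switch on genes for growth and for contact with the extracellular matrix. The pathway is known to respond to cell density, cell shape and serum factors, and in the liver it is known for restraining organ size and tumour growth. Control runs largely through phosphorylation and location of the proteins, which RNA levels do not measure.

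TEAD proteins recognise the letters GGAATG, read on either strand as GGAATG or CATTCC. The 250 bases before a start of transcription are shown for the 4 genes in which these letters occurred before at least 1 start. They are shown because CCN2 and AMOTL2 are among the 3 target genes whose RNA differed most between days. The sequences are RefSeq's for GRCh38.p14, are written 5′ to 3′ on the strand of the gene, and carry the matches in capitals. They are CCN2 at chr6:131951373-131951622 (minus strand), AMOTL2 at chr3:134374448-134374697 (minus strand), AJUBA at chr14:22976843-22977092 (minus strand) and YAP1 at chr11:102110197-102110446 (plus strand).
CCN2: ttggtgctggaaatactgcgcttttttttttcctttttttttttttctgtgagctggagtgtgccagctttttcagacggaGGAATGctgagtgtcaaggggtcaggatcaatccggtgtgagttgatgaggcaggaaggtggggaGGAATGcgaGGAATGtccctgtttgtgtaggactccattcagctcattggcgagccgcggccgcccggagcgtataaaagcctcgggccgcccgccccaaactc
AMOTL2: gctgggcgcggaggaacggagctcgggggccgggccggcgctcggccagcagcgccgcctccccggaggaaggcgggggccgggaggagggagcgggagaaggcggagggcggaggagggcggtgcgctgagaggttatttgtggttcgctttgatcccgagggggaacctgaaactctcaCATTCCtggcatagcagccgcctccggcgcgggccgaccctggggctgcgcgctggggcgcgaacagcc
AJUBA: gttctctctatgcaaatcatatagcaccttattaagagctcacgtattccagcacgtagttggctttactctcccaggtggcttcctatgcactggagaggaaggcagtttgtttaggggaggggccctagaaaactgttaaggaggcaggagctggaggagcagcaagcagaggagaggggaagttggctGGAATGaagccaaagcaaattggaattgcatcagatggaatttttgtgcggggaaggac
YAP1: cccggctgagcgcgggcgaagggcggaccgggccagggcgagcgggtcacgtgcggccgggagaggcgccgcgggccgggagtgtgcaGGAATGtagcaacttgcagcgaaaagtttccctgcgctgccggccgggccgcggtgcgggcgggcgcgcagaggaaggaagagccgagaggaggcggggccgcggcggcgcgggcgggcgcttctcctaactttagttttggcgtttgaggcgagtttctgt

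CCN2 held 3 matches, whose first bases lay at positions -169, -104 and -95, with -1 the last base before the start. The single matches of AMOTL2, AJUBA and YAP1 began at positions -69, -59 and -162. AMOTL2 and AJUBA each also had a window over the annotated start of the gene, with 0 matches. The windows shown for AMOTL2 and AJUBA belong to starts inside the annotated genes. The promoter table held 7 of the 10 genes in 11 windows, and 4 of these windows had a match. Of all 35116 windows of this length in the table, 11.9% had at least 1 match and 0.0826% had 3 or more. The AP-1 letters TGAGTCA, searched with TGACTCA for the other strand, overlap none of these and were in 4.2% of all windows and in 0 of the 11. TEAD1, TEAD4 and CCN1 had no entry in the table. A match is a description of the letters and was not tested as a binding site.

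The depth was even, between 15349382 and 16332589 estimated counts per library. Levels are given as CPM, counts scaled to a common library total after TMM normalization, where libraries are compared, and as FPKM, the authors' values scaled to transcript length, where genes are compared. NXN, the targeted gene, stood at 181, 138 and 143 CPM in shControl cells on days 7, 9 and 11 and at 42.6, 47.5 and 39.5 CPM in shNXN cells. The groups did not overlap, the log2 fold change was -1.83 (SE 0.16, edgeR adjusted p = 0.0378), and a two-sided exact permutation test of the CPM gave p = 0.10, the smallest that 3 against 3 allows. The 10 hepatocyte markers were all present, and their FPKM summed to 7997 to 16840 in shControl and 4285 to 9461 in shNXN libraries. ALB alone ran from 489 to 12145 FPKM and weighs heavily in these sums. Of the 10 markers, 5 had a log2 fold change below 0, and the median of the 10 was -0.01. Fibroblast and stellate markers summed to at most 4.37 FPKM. Of 5 endothelial markers, 4 had an entry and summed to at most 0.02 FPKM, and PECAM1 had none. The 5 leukocyte markers summed to 131 to 172 FPKM in shControl and 177 to 296 in shNXN libraries, from LYZ, CD68 and CD14, while CD3E was listed at 0 and PTPRC was at most 0.04 FPKM. In bulk RNA, fewer cells with a transcript and less of it per cell cannot be told apart.

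Per length, CCN2 and YAP1 were the most abundant of the 10 genes. The mean over the 6 libraries was 153 FPKM for CCN2, 83.2 for YAP1, 65.0 for WWTR1 and 63.6 for CCN1. AJUBA had a mean of 43.3 FPKM, AMOTL2 37.3, TEAD4 26.3 and TEAD1 14.1. The kinases were lowest, with 9.16 FPKM for LATS2 and 8.35 for LATS1. Across libraries the order was not fixed, because CCN2 ran from 30.8 to 477 FPKM and CCN1 from 8.08 to 126 FPKM. YAP1, from 67.3 to 98.9 FPKM, lay inside the range of CCN2, and WWTR1 and CCN1 overlapped as well.

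**Figure D1:**
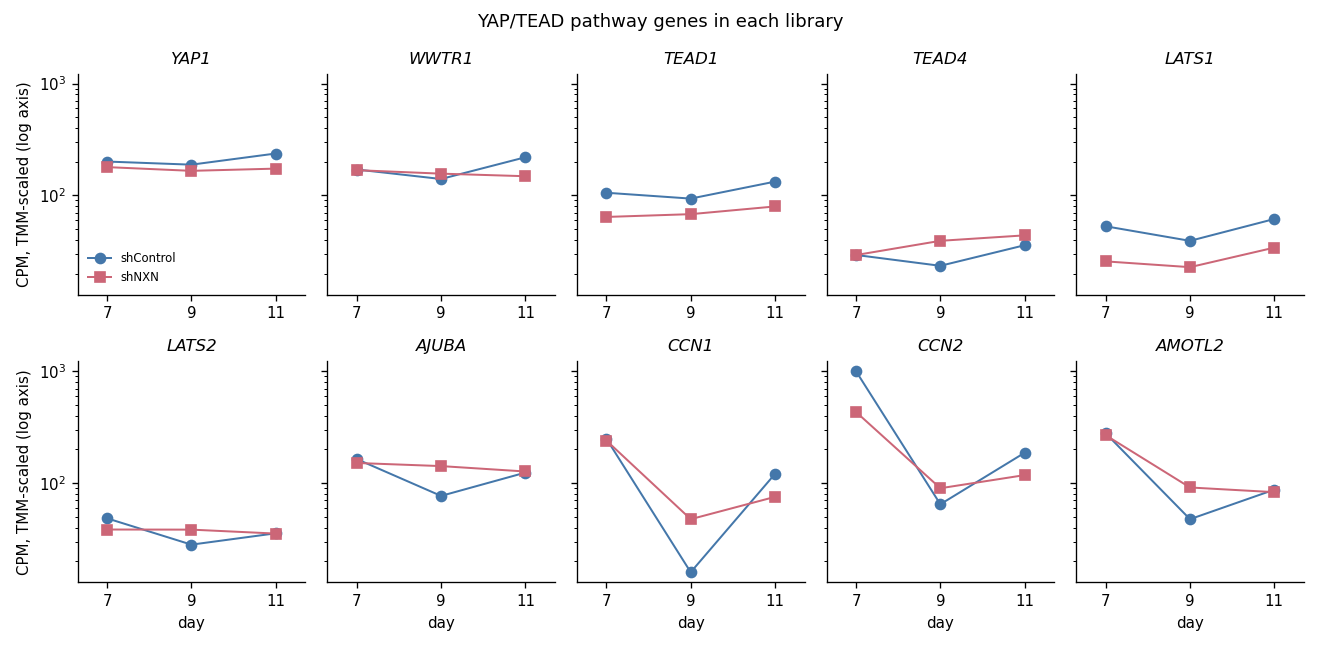
CPM of each gene (log axis) against day for the 3 shControl libraries (circles) and the 3 shNXN libraries (squares), 1 library per point. CCN1, CCN2 and AMOTL2 were highest on day 7 in both groups, and YAP1, TEAD1 and LATS1 were lower in shNXN cells on every day.

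The comparison of shNXN with shControl cells asked which of these genes differ when NXN is reduced. No gene of the 10 passed an adjusted p of 0.05 in edgeR's quasi-likelihood test, against 3.39% of all features tested, and 2, TEAD1 and LATS1, had an unadjusted p under 0.05, against 32.9% of all features. Both were lower in shNXN cells. With day as a block, which the shared days of the design allow, TEAD1 and LATS1 passed, against 23.3% of all features, and DESeq2 without the block also called these 2 genes, against 23.5%. On the FPKM scale limma called 0 of the 10, against 2.04% of all features with a pseudocount of 1 and 0.469% with 0.1. Without the shNXN library of day 11 they were called without the block as well, against 25.8% of all features. The median log2 fold change of the 10 genes was -0.13, beside 0.03 for all features tested, and -0.05 with the block, beside 0.04. With single libraries left out and no block it ran from -0.44 without the shNXN library of day 7 to 0.31 without the shControl library of day 7. Both of these fits leave a day 7 library without its partner of the same day.

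YAP1 (ENSG00000137693, chr11:102110461-102233423, plus strand) encodes the YAP coactivator. It was at 201, 188 and 237 CPM in shControl cells on days 7, 9 and 11 and at 179, 166 and 173 CPM in shNXN cells. The groups did not overlap in CPM, with every shNXN library lower, and the log2 fold change was -0.27 (SE 0.13, edgeR adjusted p = 0.195). On the FPKM scale the order turned round: the means were 74.8 ± 10.0 FPKM in shControl and 91.7 ± 9.22 FPKM in shNXN cells (SD, n = 3), and the groups overlapped. The log2(FPKM + 1) difference was 0.29 (limma adjusted p = 0.229), beside a median of 0.13 for all features on that scale. The estimated counts of YAP1 per FPKM were 45.2 in shControl and 30.5 in shNXN libraries, a ratio of 0.675, and 9.69% of 13970 features had a ratio this low or lower (median 0.978). The direction of YAP1 therefore differed between the count and FPKM tables.

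WWTR1 (ENSG00000018408, chr3:149517235-149736714, minus strand) encodes TAZ, the paralog of YAP. It was at 170, 140 and 219 CPM in shControl cells and at 168, 156 and 148 CPM in shNXN cells over days 7, 9 and 11. The groups overlapped, and shNXN cells were higher on day 9 and lower on the other days. The log2 fold change was -0.16 (SE 0.18, edgeR adjusted p = 0.540).

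TEAD1 (ENSG00000187079, chr11:12674591-12944483, plus strand), which encodes a DNA-binding partner of YAP and TAZ, was at 106, 93.6 and 133 CPM in shControl cells on days 7, 9 and 11 and at 64.1, 67.9 and 79.6 CPM in shNXN cells. In CPM all 3 shNXN values were below the lowest shControl value, while in FPKM the groups overlapped. The log2 fold change was -0.65 (SE 0.18, edgeR adjusted p = 0.0726). With day as a block it was -0.64 (SE 0.11, edgeR adjusted p = 0.0252), and DESeq2 gave an adjusted p of 0.0143. TEAD4 (ENSG00000197905, chr12:2959330-3040673, plus strand), a second gene of this family, went from 29.3, 23.4 and 35.8 CPM in shControl cells to 29.3, 39.2 and 43.9 CPM in shNXN cells. Its groups overlapped, and the log2 fold change of 0.34 (SE 0.23, edgeR adjusted p = 0.320) did not pass the test.

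LATS1 (ENSG00000131023, chr6:149658153-149718256, minus strand), a kinase that phosphorylates YAP and TAZ, was at 52.9, 39.2 and 61.5 CPM in shControl cells on days 7, 9 and 11 and at 25.7, 22.8 and 34.1 CPM in shNXN cells. It was the gene of the 10 whose groups did not overlap on either scale, with means of 9.84 ± 0.54 FPKM in shControl and 6.87 ± 1.61 FPKM in shNXN cells (SD, n = 3). The log2 fold change was -0.90 (SE 0.24, edgeR adjusted p = 0.0700). With day as a block it was -0.89 (SE 0.13, edgeR adjusted p = 0.0183), and DESeq2 gave an adjusted p of 0.00639. LATS2 (ENSG00000150457, chr13:20973032-21061547, minus strand), the paralogous kinase, was at 48.3, 28.1 and 35.5 CPM in shControl cells and at 38.4, 38.3 and 35.3 CPM in shNXN cells. The shNXN values lay inside the shControl range, and the log2 fold change was 0.0011 (SE 0.22, edgeR adjusted p = 0.998). Whether the changes of LATS1 and LATS2 differ from each other was not tested.

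In all, YAP1, TEAD1 and LATS1 were lower in every shNXN library than in any shControl library in CPM, 3 of 10 genes beside 21.5% of all features. In FPKM, 1 of 10 was (LATS1), beside 15.2% of all features. None of the 10 was higher in every shNXN library on either scale, beside 19.1% of all features in CPM and 20.4% in FPKM. In either direction, the groups did not overlap for 40.6% of all features in CPM and 35.5% in FPKM.

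**Figure D2:**
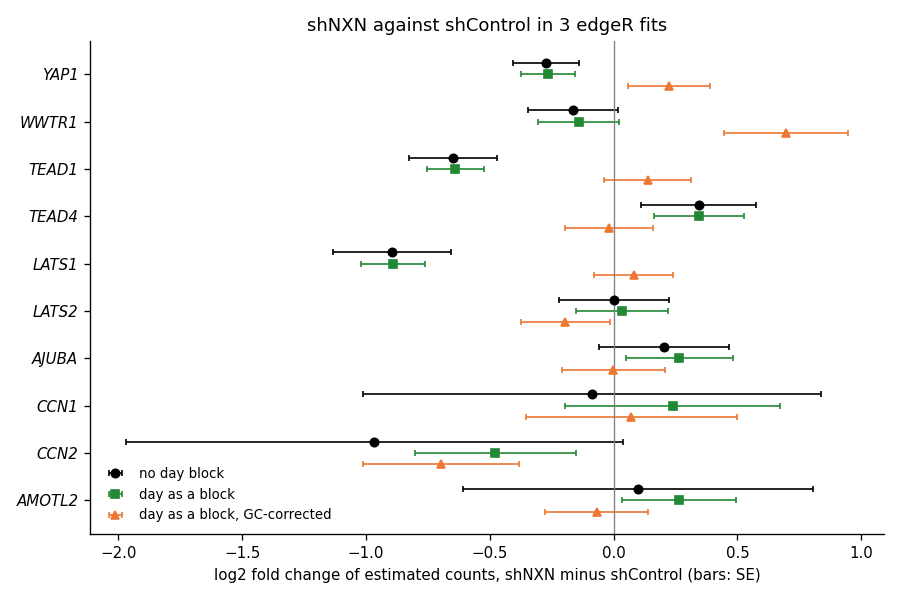
Log2 fold change of estimated counts, shNXN minus shControl, for each gene in 3 edgeR fits: without the day block (circles), with day as a block (squares) and with the block and a correction for transcript GC content (triangles). Bars are standard errors. LATS1 and TEAD1 moved from -0.89 and -0.64 with the block to 0.08 and 0.14 with the GC correction added, and the errors of CCN1, CCN2 and AMOTL2 shrank with the block.

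The 3 genes that were lower in every shNXN library, YAP1, TEAD1 and LATS1, had transcripts of low GC content, and GC content moved with the group across the whole transcriptome. CCN2, with the lowest log2 fold change of the 10 and overlapping groups, was not among the genes of low GC content. LATS1 (39.7% GC), WWTR1 (40.9%), TEAD1 (41.3%) and YAP1 (43.5%) were the lowest of the 10, CCN1, CCN2, LATS2 and AJUBA lay between 50.3% and 52.8%, and AMOTL2 (56.7%) and TEAD4 (60.4%) were the highest. Across the 10 genes the log2 fold change and GC content had a Spearman rho of 0.77, and across all 12740 features with a GC value it was 0.79. Genes share libraries and are not independent replicates, so these are descriptions. Within libraries, the rho of GC content with the deviation from the mean of the 6 was -0.62, -0.37 and -0.71 in shControl cells on days 7, 9 and 11 and 0.71, 0.75 and 0.09 in shNXN cells. The shNXN library of day 11 stood apart from the other shNXN libraries in this respect.

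After the correction for GC content the log2 fold changes of LATS1 and TEAD1 lay near 0. LATS1 then had a log2 fold change of 0.08 (edgeR adjusted p = 0.878), TEAD1 0.14 (edgeR adjusted p = 0.749) and YAP1 0.23 (edgeR adjusted p = 0.532). WWTR1 moved to 0.73 (edgeR adjusted p = 0.183, unadjusted p = 0.0146), the largest value among the 10 upward. TEAD4, the gene richest in GC, went to -0.02 (edgeR adjusted p = 0.982). None of the 10 passed after the correction, beside 0.0355% of all features. With the block and the correction together the count was also 0, beside 0.931% of all features. The correction removes any difference that follows GC content, whatever its origin.

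**Figure D3:**
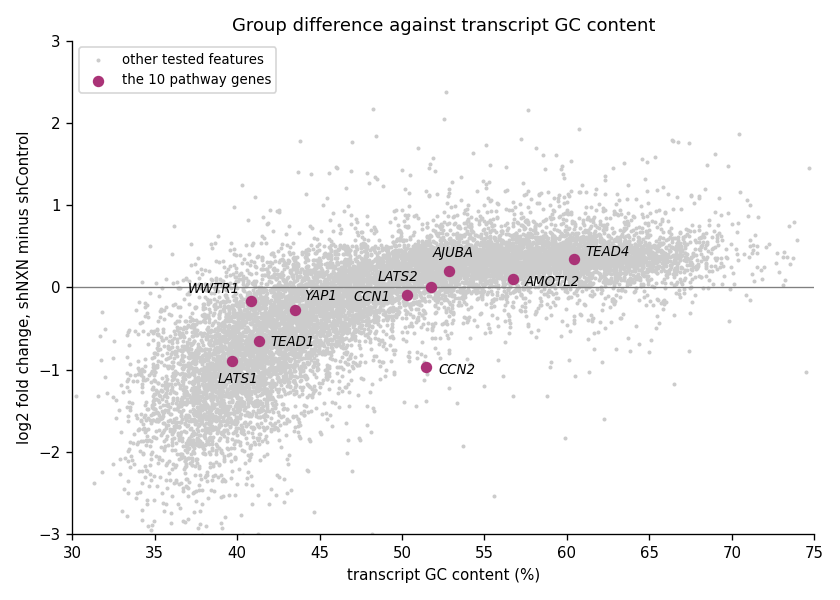
Log2 fold change, shNXN minus shControl, against GC content of the longest annotated transcript, for the 10 genes (large points) and the other features with a GC value (grey), 12740 in all, of which 37 lie outside the axes. LATS1, TEAD1, YAP1 and WWTR1 sit at 39.7% to 43.5% GC with values below 0, and CCN2, at -0.97, lies below most features of like GC content.

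For the 3 target genes the largest differences lay between days, although edgeR called none of them for change with day. CCN1 and CCN2 encode secreted matricellular proteins (CYR61 and CTGF in older usage), and both are widely used readouts of YAP/TEAD activity. AMOTL2, also a YAP/TEAD target, encodes an angiomotin protein that binds YAP and holds it outside the nucleus. All 3 were highest on day 7 in both groups, and CCN1 and CCN2 were lowest on day 9 in both.

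CCN2 (ENSG00000118523, chr6:131948176-131951373, minus strand) was at 998, 64.6 and 187 CPM in shControl cells on days 7, 9 and 11 and at 432, 89.9 and 118 CPM in shNXN cells. The ratio of day 7 to day 9 was 15.5-fold in shControl and 4.81-fold in shNXN cells. CCN1 (ENSG00000142871, chr1:85580761-85583962, plus strand) was at 249, 15.9 and 121 CPM in shControl cells and at 240, 47.5 and 75.2 CPM in shNXN cells. These 2 genes had the same shape, high on day 7, low on day 9 and between on day 11, and the ratio of day 7 to day 9 for CCN1 was 15.6-fold in shControl and 5.05-fold in shNXN cells. AMOTL2 (ENSG00000114019, chr3:134355874-134375479, minus strand) was at 278, 47.5 and 87.2 CPM in shControl cells and at 268, 91.3 and 82.9 CPM in shNXN cells. Its shControl values were lowest on day 9 and its shNXN values on day 11, where the shNXN libraries of days 9 and 11 lay close together. The ratio of day 7 to day 9 was 5.86-fold in shControl and 2.93-fold in shNXN cells.

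AJUBA (ENSG00000129474, chr14:22971174-22982642, minus strand), which encodes a LIM protein that binds LATS kinases, was at 164, 76.7 and 124 CPM in shControl cells and at 151, 142 and 127 CPM in shNXN cells over days 7, 9 and 11. Day 7 was highest in both groups, but the ratio of day 7 to day 9 was 2.13-fold in shControl and 1.07-fold in shNXN cells.

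Fitted over both groups, the log2 difference between day 9 and day 7 was -3.08 (SE 0.43) for CCN2, -3.0 (SE 0.55) for CCN1 and -2.02 (SE 0.29) for AMOTL2. From day 9 to day 11 the log2 differences were 1.71 (SE 0.54) for CCN1, 0.89 (SE 0.40) for CCN2 and 0.34 (SE 0.28) for AMOTL2. Day 11 stayed below day 7 by log2 differences of -2.19, -1.29 and -1.68 for CCN2, CCN1 and AMOTL2. The log2 differences of the other 7 genes were smaller, between -0.57 for AJUBA and 0.06 for TEAD4 from day 7 to day 9. YAP1 had a log2 difference of -0.10 (SE 0.13), WWTR1 of -0.19 (SE 0.20) and TEAD1 of -0.04 (SE 0.14) over the same step. Over the 6 libraries the highest CPM was 1.43 times the lowest for YAP1 and 1.56 times for WWTR1, beside 15.5 times for CCN2, 15.6 times for CCN1 and 5.86 times for AMOTL2.

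The edgeR test of change with day, with 2 libraries per day and group as a term, called 0 of the 10 genes and 0 of the 14071 features, so the percentage called was 0. The unadjusted p was under 0.05 for 4 of the 10 (CCN2, AMOTL2, CCN1 and LATS1), beside 21.4% of all features. Adjusted p values from edgeR were 0.118 for CCN2 and AMOTL2, 0.144 for CCN1 and 0.194 for LATS1, and by p CCN2 ranked 117, AMOTL2 124 and CCN1 610 among the features. DESeq2's likelihood ratio test called CCN2 (adjusted p = 7.59e-14), AMOTL2 (adjusted p = 8.4e-10) and CCN1 (adjusted p = 7.76e-07), 3 of 10 beside 9.79% of all features. In edgeR without the filter on low counts CCN2 (adjusted p = 0.0220) and AMOTL2 (adjusted p = 0.0281) passed, beside 1.56% of all features. With the GC correction edgeR called 0 of the 10, beside 0.171% of all features. Leaving out the shControl library of day 11 or the shNXN library of day 11 gave 3 calls (CCN1, CCN2 and AMOTL2, beside 11.1% and 3.8% of all features), leaving out the shControl library of day 9 gave 2 (CCN2 and AMOTL2, beside 0.175%), and leaving out any of the other 3 gave 0.

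As a description, for 5 of the 10 genes both day 7 libraries were above the other 4 in CPM, beside 3.01% of all features. These were CCN1, CCN2, AMOTL2, AJUBA and LATS2. In shNXN cells LATS2 was nearly level, at 38.4 CPM on day 7 and 38.3 CPM on day 9. AJUBA was close as well, at 151 and 142 CPM. In FPKM the count was 4, without LATS2, beside 3.27%. Day 9 was lower than day 7 by at least 2-fold in both groups for CCN1, CCN2 and AMOTL2, beside 0.668% of all features, and by at least 4-fold for CCN1 and CCN2, beside 0.171%. Both libraries of day 9 were below the other 4 for CCN1 and CCN2, beside 4.79% of all features. These patterns follow the shape already seen in CCN1, CCN2 and AMOTL2, so the shares describe that shape and are no test of it. After the GC correction the log2 differences between day 9 and day 7 were -3.08, -3.0 and -2.06 for CCN2, CCN1 and AMOTL2.

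For the comparison of groups, the standard errors of these genes were wider than those of the coactivators and kinases. The log2 fold change of shNXN against shControl was -0.97 (SE 1.0, edgeR adjusted p = 0.513) for CCN2, -0.09 (SE 0.93, edgeR adjusted p = 0.953) for CCN1 and 0.10 (SE 0.71, edgeR adjusted p = 0.931) for AMOTL2, and the groups overlapped for all 3. AJUBA had a log2 fold change of 0.20 (SE 0.26, edgeR adjusted p = 0.600), also with overlapping groups. With day as a block the value of CCN2 was -0.48 (SE 0.33, edgeR adjusted p = 0.290), of CCN1 0.24 (SE 0.43, edgeR adjusted p = 0.684), and of AMOTL2 0.26 (SE 0.23, edgeR adjusted p = 0.397). In fits without the block, the log2 fold change of CCN2 was 0.79 without the shControl library of day 7. It was -2.0 without the shNXN library of day 7. Each of these fits leaves a day 7 library without its partner of the same day, so day and group are mixed in them. The difference in slope over days between the groups was called for 0 of the 10 genes and 0 features in edgeR, with 0 of the 10 genes and 1.08% of all features at an unadjusted p under 0.05, and DESeq2 called 4 features (0.0284%), none of them among the 10.

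**Figure D4:**
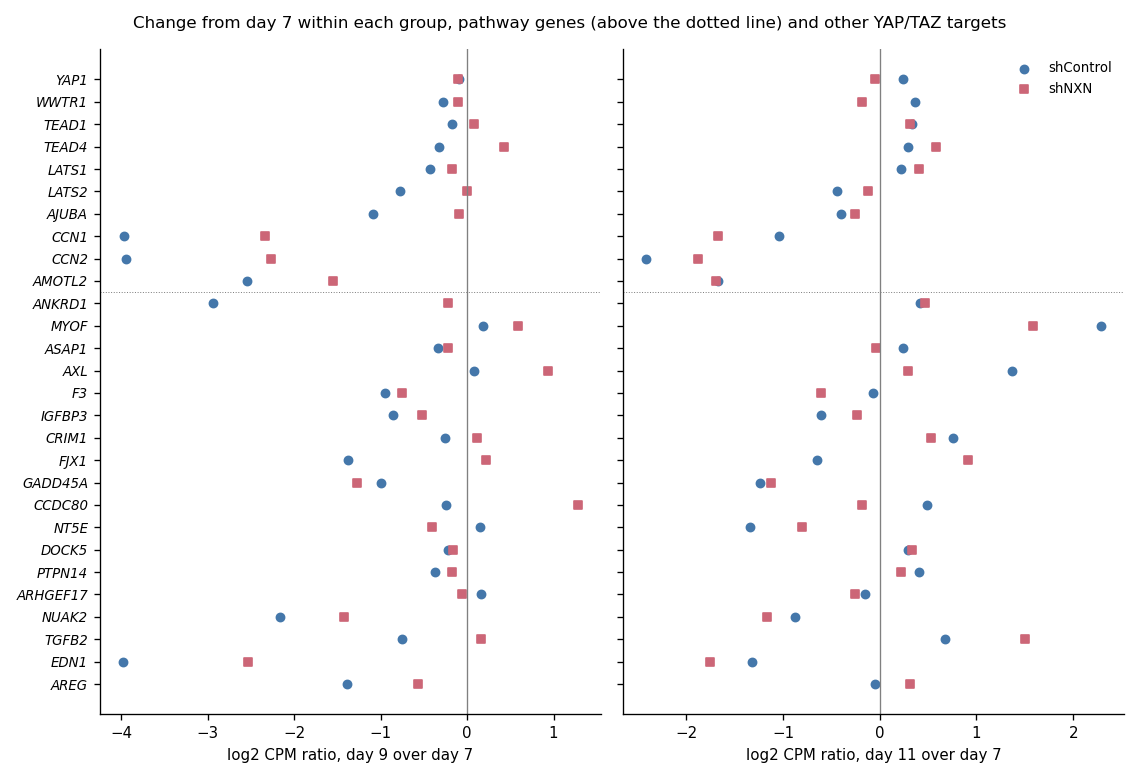
Log2 ratio of CPM on day 9 (left) and day 11 (right) to day 7 within each group, 1 library per group and day, for the 10 genes above the dotted line and 18 of the 19 further YAP/TAZ target genes below it. CCN1, CCN2 and AMOTL2 lie left of 0 in both groups on both days, as do NUAK2, GADD45A and EDN1. MYOF and TGFB2, among others, lie right of 0 on day 11.

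The wider list of 21 YAP/TAZ target genes, of which 19 were tested, held genes that were high on day 7, as CCN1 and CCN2 were. It also held genes that were high on day 11, MYOF and TGFB2 among them. EdgeR called 0 of the 19 for change with day, 12 had an unadjusted p under 0.05, beside 21.4% of all features, and DESeq2 called 9, beside 9.79%. The median log2 difference from day 7 to day 9 was -0.36, beside -0.0047 for all features, and 15 of the 19 were below 0. From day 7 to day 11 the median was 0.12, beside 0.07 for all features, and 7 of the 19 were below 0. Both day 7 libraries were above the other 4 for 5 of the 19 (F3, IGFBP3, GADD45A, NUAK2 and EDN1), beside 3.01% of all features. For 2 of the 19, NUAK2 and EDN1, day 9 was lower than day 7 by at least 2-fold in both groups, beside 0.668% of all features. These patterns are the ones described above for CCN1, CCN2 and AMOTL2, and the shares are not a test.

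The following genes were chosen after their values were seen. EDN1, which encodes endothelin, was at 15.6, 0.98 and 6.26 CPM in shControl cells on days 7, 9 and 11 and at 10.6, 1.84 and 3.16 CPM in shNXN cells. NUAK2, a kinase, was at 54.1, 12.0 and 29.6 CPM and at 62.8, 23.4 and 28.0 CPM. Both had the shape of CCN1, high on day 7 and lowest on day 9 in each group. GADD45A, a growth arrest gene, went from 44.3 to 22.1 and 18.7 CPM in shControl cells and from 49.6 to 20.5 and 22.8 CPM in shNXN cells. MYOF, a membrane repair protein, was highest on day 11 instead, at 73.6 CPM in shControl and 42.4 CPM in shNXN cells, beside 15.1 and 14.1 CPM on day 7.

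ANKRD1, another common YAP/TEAD readout, was at 201, 26.2 and 268 CPM in shControl cells and at 79.2, 68.0 and 109 CPM in shNXN cells. Its shControl value was low on day 9, its shNXN libraries of days 7 and 9 were close together, and its unadjusted p for change with day was 0.127 in edgeR. It was also chosen after its values were seen.

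Genes elsewhere in the pathway were taken from 5 lists of 91 genes in all, of which 86 were tested: the Hippo kinase core, cofactors and inhibitors of YAP/TAZ and TEAD, the STRIPAK phosphatase complex that opposes the MST kinases, polarity and junction proteins that feed into the cascade, and the further target genes. Without the block edgeR called 0 of the 86, and 34 had an unadjusted p under 0.05, beside 32.9% of all features. DESeq2 called 22, beside 23.5% of all features. With day as a block, 4 passed higher and 23 lower in shNXN cells, beside 6.28% of all features higher and 17% lower. With the block and the GC correction together, 0 of the 86 passed, beside 0.931% of all features.

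In the kinase core, 8 of 19 tested genes were lower with the block and 0 higher. The shares over all features were 17% lower and 6.28% higher. The 4 with the smallest p were TAOK1 and the kinases MAP4K3 and MAP4K5, which can activate LATS kinases, and MOB1B, a LATS cofactor. MAP4K5 stood at 44.6 ± 6.90 CPM in shControl and 14.4 ± 6.86 CPM in shNXN cells (SD, n = 3), and its log2 fold change with the block was -1.71 (edgeR adjusted p = 0.0149). TAOK1 had -1.53 (edgeR adjusted p = 0.0142), MAP4K3 -1.40 (edgeR adjusted p = 0.0147) and MOB1B -1.62 (edgeR adjusted p = 0.0175) on the same scale. With the GC correction added, the log2 fold changes of TAOK1, MAP4K3, MAP4K5 and MOB1B were -0.53, -0.43, -0.27 and -0.09. The list had a median transcript GC content of 43.1%. Without the block, its median log2 fold change went from -0.43 to 0.06 with the correction.

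In the STRIPAK complex, 8 of 18 tested genes were lower with the block and 1, STRN4, was higher. The shares over all features were again 17% and 6.28%. The 4 with the smallest p were STK26, a kinase, PPP2CA, a catalytic subunit of the phosphatase, FGFR1OP2, and PDCD10, an adaptor. Their log2 fold changes with the block were -1.12, -0.63, -1.11 and -1.95, and 0.07, 0.16, 0.25 and -0.60 with the GC correction added. Without the block, the median of the list went from -0.54 to 0.10 with the correction, at a median GC content of 41.7%.

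Of the polarity and junction list, 6 of 18 were lower with the block and 0 higher, beside 17% and 6.28% of all features. The 4 with the smallest p were PRKCI, an atypical protein kinase C, PALS1, a Crumbs complex scaffold, and the large cadherins DCHS2 and FAT4. Their log2 fold changes with the block were -1.05, -1.10, -1.01 and -1.19. With the correction added PRKCI was at -0.0093 and PALS1 at -0.17, while DCHS2 and FAT4 were at -0.78 (edgeR adjusted p = 0.0989) and -0.85 (edgeR adjusted p = 0.114) and no longer passed. In the fits without the block, the median of the list was -0.0097 without the correction and -0.11 with it.

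Of the 14 cofactors and inhibitors tested, 2 were higher with the block and 0 lower, beside 6.28% and 17% of all features. WTIP, a LIM protein of the AJUBA family, had a log2 fold change of 0.61 (edgeR adjusted p = 0.0447). CSNK1E, a casein kinase, had 0.40 (edgeR adjusted p = 0.0431). With the GC correction added these were 0.29 and 0.06. Of the 19 further targets, 1 was higher with the block, IGFBP3, which binds insulin-like growth factors (log2 fold change 0.47, edgeR adjusted p = 0.0443), and 1 lower, TGFB2, a growth factor (log2 fold change -1.99, edgeR adjusted p = 0.0150). TGFB2 was at 25.6 ± 12.2 CPM in shControl and 6.63 ± 4.14 CPM in shNXN cells (SD, n = 3), and with the GC correction added its log2 fold change was -0.94 (edgeR adjusted p = 0.103). Without the block, the median log2 fold change was 0.04 for the cofactors and -0.02 with the correction. For the targets these medians were -0.33 and -0.09.

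Across the 6 libraries, the features most like CCN2 in log2 CPM, among 9526 with a symbol and at least 10 CPM on average, were TRIM71 (Pearson r = 0.97), DUSP10 (r = 0.97) and PLK2 (r = 0.96). PLK2 was at 98.8, 17.8 and 40.1 CPM in shControl cells on days 7, 9 and 11 and at 75.3, 14.5 and 27.1 CPM in shNXN cells. AMOTL2 ranked 9 (r = 0.94) and CCN1 ranked 23 (r = 0.91) in likeness to CCN2, followed by LATS2 at 60 (r = 0.85) and AJUBA at 148 (r = 0.74). WWTR1 ranked 816 (r = 0.41), LATS1 1325 (r = 0.31), YAP1 1414 (r = 0.29), TEAD1 2662 (r = 0.15) and TEAD4 6551 (r = -0.16). The features most like YAP1 were LIN28B, RNFT1 and TBPL1, each with r = 0.99, and among the other 9 genes TEAD1 (r = 0.92) and LATS1 (r = 0.90) were nearest to YAP1 and WWTR1 had r = 0.81. These values rest on 6 libraries that also share depth and GC trends, and they are given with no test.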

How the data were processed

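RNA of 6 Hep-3B libraries was sequenced with a SMARTER mRNA-seq kit. The authors deposited 2 tables of the same 23406 features: estimated counts, of which 15.1% to 18.8% per library were not whole and which share out reads between paralogs and overlapping genes, and FPKM values, which also depend on the transcript lengths used. The aligner, the counting program and the annotation are not given in the sources used here. The submitters' processing notes name GRCm38 and mm10, which are mouse builds, whereas the features carry human Ensembl identifiers, so coordinates and transcript GC content were taken from GENCODE 29 (GRCh38), from the longest transcript.

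The main test, on rounded estimated counts, was the quasi-likelihood test of edgeR 4.0.16 under R 4.3.3 with TMM and filterByExpr, with Benjamini-Hochberg adjustment over 14071 features and a threshold of 0.05. The standard error of a group log2 fold change or slope was computed as the absolute estimate over the root of F. Change with day was an F test with group as a term. Day was the block: the labels give both groups the same days, and libraries of the same day deviated together (r = 0.39, 0.35 and 0.49, beside -0.42 to 0.17 between days). No replicates agreed within sampling noise (chi-square per gene 21.1 to 82.9). The GC correction was a natural spline with 5 degrees of freedom per library, entered as an offset. Alternatives were DESeq2 1.42.0, RLE factors, unscaled library sizes, a minimum of 10 counts in each library, no filter except a total of 1 count, limma 3.58.1 on log2(FPKM + 1) and log2(FPKM + 0.1), the block, the GC correction, and each library left out. Scripts were tested on simulated data.

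The 10 genes, the lists and the tests were chosen with earlier results of these data known. In each list, up to 4 genes with the smallest p and an adjusted p under 0.05 without or with the block, or for change with day, are named, and for YAP1 and CCN2 the 3 features most like each. Genes named outside this rule are marked in the text. 1 gene of the target list is counted but not reported here by itself.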

Additional observations from a re-analysis of the deposited data

Results flagged for a closer look

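For 7 of the 10 genes the sign of the log2 CPM difference, shNXN minus shControl, changed between days. Each day has 1 library per group, so these differences were not tested. The values on days 7, 9 and 11 were -0.05, 1.58 and -0.68 for CCN1, -1.21, 0.48 and -0.66 for CCN2, and -0.06, 0.94 and -0.07 for AMOTL2. AJUBA had -0.12, 0.89 and 0.03, and LATS2 had -0.33, 0.45 and -0.0081. TEAD4 had -0.0018, 0.74 and 0.29, and WWTR1 had -0.02, 0.16 and -0.56. All 7 genes were higher in shNXN cells on day 9. No share over all features is given beside these counts, so they do not show whether this is particular to the 10 genes. For TEAD4 the change of sign rested on the value of -0.0018 on day 7. The median difference of the 10 genes was -0.14, 0.46 and -0.51 over the 3 days. YAP1, TEAD1 and LATS1 were lower in shNXN cells on each day.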

How the results depend on the processing

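The count of features called between the groups, 477, depended on most settings: DESeq2 gave 3311, RLE factors 826, unscaled library sizes 929, a fit without the filter 818, limma on log2(FPKM + 1) and log2(FPKM + 0.1) 287 and 66, the GC correction 5, day as a replicate block 3272, and both of these together 131, while leaving out 1 library gave 0 to 3706, the highest without the shNXN library of day 11. Of the 10 genes, 0 were called, but 2 (TEAD1 and LATS1) with DESeq2, with the block and without the shNXN library of day 11, so that leaving out 1 library gave 0 to 2. Of the 86 further pathway genes, 0 were called, but DESeq2 called 22, RLE factors gave 4, unscaled library sizes 7, and there were 4 without the filter, 1 with at least 10 counts in every library, 2 with limma on log2(FPKM + 1), 27 with the block, and 0 to 26 with 1 library left out. For change with day, 0 features were called, but 1378 with DESeq2, 302 without the filter, 24 with the GC correction and from 0 to 1595 when 1 library was left out, and of the 10 genes 3 with DESeq2, 2 without the filter and 0 to 3 with 1 library left out.

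The GC correction, without and with the block, turned the direction of YAP1 (0.23 and 0.22), WWTR1 (0.73 and 0.70), TEAD1 (0.14 and 0.14), TEAD4 (-0.021 and -0.019), LATS1 (0.077 and 0.081), LATS2 (-0.23 and -0.19), AMOTL2 (-0.25 and -0.069) and AJUBA (-0.065 and -0.00069). With limma on log2(FPKM + 1) and log2(FPKM + 0.1) the values were 0.29 and 0.30 for YAP1, 0.076 and 0.077 for WWTR1, and 0.26 and 0.29 for CCN1. CCN1 was 0.24 with the block and 0.071 with block and GC correction, and LATS2 was -0.0060 with at least 10 counts in every library. The slope difference turned to 0.023 for AMOTL2 and -0.067 for LATS1 with the GC correction. With 1 library left out the log2 fold changes ran from -0.28 to 0.084 for WWTR1, -0.13 to 0.26 for LATS2, -1.06 to 0.84 for CCN1, -2.0 to 0.79 for CCN2, -0.66 to 1.16 for AMOTL2 and -0.0049 to 0.50 for AJUBA, with both signs, and from -0.32 to -0.11 for YAP1, -0.74 to -0.44 for TEAD1, 0.21 to 0.56 for TEAD4 and -1.08 to -0.69 for LATS1. The block changed no other call of the 10 genes. NXN stayed lower in all 16 alternatives and missed the threshold in 4, without the shControl library of day 7 or 11 or the shNXN library of day 7 or 9 (edgeR adjusted p = 0.0633 to 0.225), where the count of all features called was 0. The cause of these shifts was not tested. With 1 library per group and day, differences on a given day have no error.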
